A study of Rattus norvegicus with 30 samples.

Results

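The 9 genes described here encode gp130 cytokines and the receptor chains through which they signal: the ligands Il6, Clcf1, Cntf, Lif and Osm, the shared subunit Il6st (gp130) and the specific chains Il6ra, Lifr and Osmr. Members were the probes whose gene name in the scanner files was one of these 9 symbols, which gave 10 of the 41012 non-control probes on each of 30 arrays. Clcf1 had 2 probes and each other gene had 1. Adult male Sprague-Dawley rats, with no genetic alteration, had a segment of the left sciatic nerve resected, and total RNA of the proximal sciatic nerve stump (SN) and of the lumbar dorsal root ganglia (DRG), which hold the cell bodies of the sensory axons, was hybridised with 1 dye. Each tissue was collected at 0, 1, 4, 7 and 14 d after resection with 3 arrays per tissue and day, and the 0 d group of each tissue is the control for its later days. The labels do not say how many rats stand behind 1 array or whether the arrays of a group hold separate rats. The paper on the nerve reports 3 biological replicates at each time point, without the number of rats per array. The p-values measure the spread between arrays, and how much of it is technical is not known.

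Il6-type cytokines bind a specific receptor chain, which then pairs with gp130, and the paired receptors activate Jak kinases, Stat3 and, through Shp2, the Erk kinases. Il6 needs Il6ra together with a pair of gp130 chains, Lif signals through gp130 with Lifr, Cntf and Clcf1 use the same pair after binding Cntfr, and Osm signals through gp130 with Osmr or Lifr. In peripheral nerve, Cntf is known as a Schwann cell product with survival activity for neurons, and Il6 and Lif are known injury cytokines whose signal reaches the sensory cell body.

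The signal of a probe is given throughout as log2 of the processed signal minus the 75th percentile of that array, so a difference of 1 is a 2-fold difference and the level of a probe can be set against itself in another group but not against another probe. A probe was well above background on an array where the scanner software marked at least 50% of its spots so. Under or below background is said of a group with no array well above background, and does not mean a signal lower than the background. Changes were tested with limma over all probes measured in a tissue (35157 in SN, 34968 in DRG) and were called at a Benjamini-Hochberg adjusted p below 0.05 together with a change of more than 2-fold. Rose and fell are used only of changes called in this way. Where a rise is given as at least a fold, because 0 d lay under background, the call is that of the fitted change and the bound was not tested. Such a bound holds for this scaling only. Within a tissue, counts made without the 2-fold limit have no share of all probes at that threshold beside them, and so no base rate. Arrays of a group resembled each other (Pearson r across probes 0.984 to 0.997), but DRG 0 d replicates 2 and 3 had the fewest probes well above background, 26914 and 28554, against 30220 to 35541 on the other arrays. Markers fitted the labelled tissues: the mean signal of 11 sensory neuron genes lay between 5.46 and 5.95 on the DRG arrays and between -2.87 and -1.66 on the SN arrays. All arrays of 0 d lay on slides that held no later day, so a change from 0 d cannot be told apart from a difference between slides or scans, and the 4 comparisons of a tissue share its 3 arrays of 0 d. Calls over all probes leaned upwards, with 70.1 to 84.5% of the calls of a day upwards in SN and 92.3 to 97.8% in DRG, and under quantile normalization with 53.6 to 62.6% and 73.7 to 86.5%. The arrays measure bulk tissue, so fewer cells of a type and less RNA per cell cannot be told apart.

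Promoter sequences of 6 of the 9 genes were held in the RefSeq table (GRCr8), Il6, Il6st, Il6ra, Lifr, Osmr and Cntf, and those of Clcf1, Lif and Osm are named only. The 250 bases before the annotated start of Il6 (chr4:5894576-5894825, minus strand), of Osmr (chr2:57688562-57688811, minus strand) and of Cntf (chr1:219314536-219314785, minus strand) are shown. These are the windows, of the 6, that held a motif match. Il6 and Osmr rose in SN after resection and Cntf fell, as did Lifr, whose window is not shown. Capitals mark matches, on either strand, to the NF-kB motif, a cAMP response element (TGACGTCA), a C/EBP motif (TTNNGNAAT) and an AP-1 motif (TGANTCA).
Il6: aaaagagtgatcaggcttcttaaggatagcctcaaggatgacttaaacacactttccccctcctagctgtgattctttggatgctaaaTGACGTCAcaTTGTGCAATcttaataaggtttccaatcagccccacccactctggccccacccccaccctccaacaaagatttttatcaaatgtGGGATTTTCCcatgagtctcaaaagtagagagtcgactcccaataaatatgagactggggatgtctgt
Osmr: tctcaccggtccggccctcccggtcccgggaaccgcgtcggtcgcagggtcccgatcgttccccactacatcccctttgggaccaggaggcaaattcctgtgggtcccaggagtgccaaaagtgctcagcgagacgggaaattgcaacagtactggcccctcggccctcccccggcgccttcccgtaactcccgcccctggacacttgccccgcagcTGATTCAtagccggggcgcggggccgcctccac
Cntf: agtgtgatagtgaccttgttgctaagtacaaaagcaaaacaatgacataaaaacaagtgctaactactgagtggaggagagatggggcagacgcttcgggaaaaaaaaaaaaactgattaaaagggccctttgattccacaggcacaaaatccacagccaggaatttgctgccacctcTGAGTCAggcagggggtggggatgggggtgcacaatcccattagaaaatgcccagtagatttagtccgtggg
The Il6 window held the NF-kB match 68 bases before the start, the C/EBP match at 152 and the cAMP response element at 162, while Osmr and Cntf each held 1 AP-1 match, at 33 and 72 bases. Of 33469 rat promoter windows of this length, 6.33% held the NF-kB motif, 10.9% the C/EBP motif, 1.59% the cAMP response element and 6.34% the AP-1 motif. The Stat motif TTCNNNGAA, found in 7.67% of windows, was in none of the 6, and the windows of Il6st, Lifr and Il6ra held none of the 5 motifs. These matches describe the letters of the windows and no binding was measured.

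In the injured nerve stump the family split in opposite directions. Il6, Clcf1 and the receptor chain Osmr rose within 1 d and stayed above their 0 d level to 14 d, while Cntf and Lifr fell. The shared subunit Il6st stayed just within 2-fold, at 1.99-fold at 7 d, and Lifr fell 2.33-fold at most. All 9 representative probes were tested in SN. At 1 d, 4 of the 9 were called, all upwards (Il6, Clcf1, Osm and Osmr), beside 22.1% of all probes. At 4 d, 5 were called, with Il6, Clcf1 and Osmr upwards and Cntf and Lifr downwards, beside 22.7% of all probes. At 7 d, 6 were called as Lif joined the same 5, beside 24.9%, and at 14 d, 4 were called, Il6, Clcf1 and Osmr upwards and Cntf downwards, beside 19.8%. The median change of the 9 was 0.77, 0.81, 1.1 and 0.86 at 1, 4, 7 and 14 d, against 0.11, 0.15, 0.15 and 0.16 over all probes. In DRG, where 8 members were tested, Il6 was the only member called, upwards at each day, beside 7.6, 6.55, 6.91 and 13.5% of all probes at 1, 4, 7 and 14 d. The plot of each array's signal shows these courses.

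**Figure D1:**
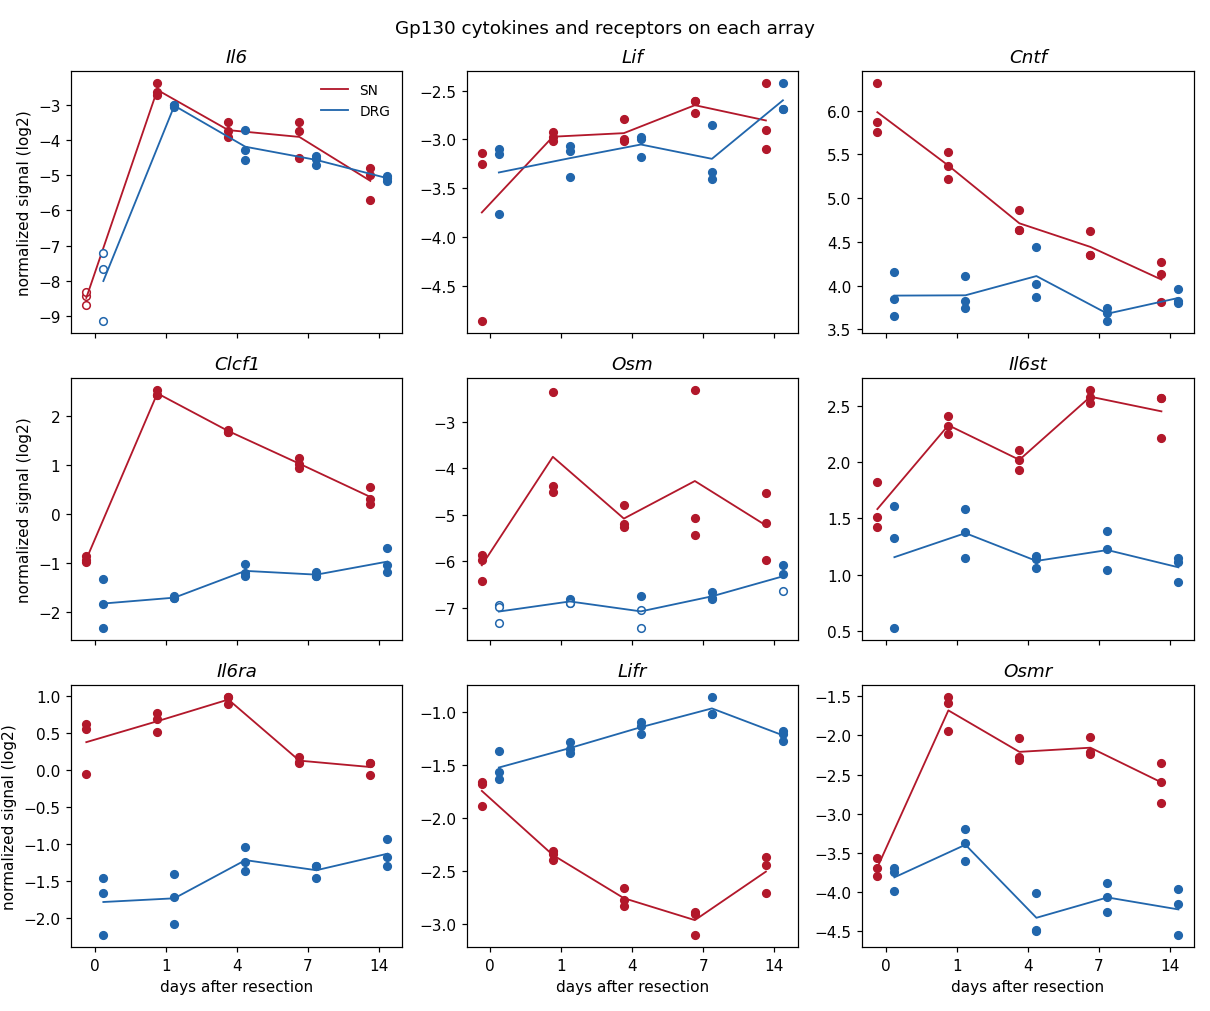
Normalized signal (log2, relative to the 75th percentile of the array) of the 9 genes by day after resection, with 1 point per array in SN and DRG, filled where the probe was well above background and hollow where it was not, and lines through the group means. Il6 was not well above background in either tissue at 0 d and had its highest level at 1 d, Clcf1 and Osmr were likewise highest in SN at 1 d, and the group mean of Cntf declined in SN from 5.98 to 4.07 while it lay between 3.68 and 4.11 in DRG.

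Il6 is the acute-phase cytokine of the family, and its probe (rn4 chr4:457279-458563, minus strand) was printed as 10 spots per array. In SN its signal was -8.70, -8.45 and -8.32 at 0 d, not well above background on any array, and -2.70, -2.36 and -2.63 at 1 d. It was -3.49, -3.90 and -3.74 at 4 d, -4.49, -3.49 and -3.73 on day 7, and -5.0, -5.69 and -4.78 at 14 d. Every array after resection was above every 0 d array, and the 1 d arrays were above those of all later days. Because 0 d lay under background, the folds are lower bounds under this scaling, while the p-values are those of the fitted changes, 5.93, 4.78, 4.59 and 3.34 (log2). Il6 rose at least 14.3-fold at 1 d, 6.47-fold at 4 d, 5.66-fold on day 7 and 2.38-fold at 14 d in SN (limma adjusted p of the fitted changes = 3.05e-08, 6.13e-08, 8.26e-08 and 1.22e-06). In DRG the signal of Il6 was -9.14, -7.21 and -7.68 at 0 d, again not well above background, and -3.0, -3.06 and -2.98 at 1 d. Its later DRG values were -4.56, -4.27 and -3.72 at 4 d, -4.52, -4.46 and -4.70 on day 7, and -5.02, -5.15 and -5.07 at 14 d. The group means thus followed the same order in both tissues. In DRG Il6 rose at least 7.07-fold, 3.14-fold, 2.42-fold and 1.68-fold (limma adjusted p of the fitted changes = 3.78e-06, 2.4e-05, 4.92e-05 and 0.000123), where the bound at 14 d is under 2-fold. With normexp background correction and quantile normalization the Il6 changes at 1, 4, 7 and 14 d were 2.03, 1.30, 1.18 and 0.58 in SN and 1.84, 1.13, 0.94 and 0.61 in DRG (log2). These changes were smaller than the bounds above at every day in both tissues. The calls at 14 d in SN and at 7 and 14 d in DRG were then lost for size. When DRG 0 d was represented by replicate 1 alone, an alternative chosen after seeing the data, the fitted Il6 changes in DRG were 6.12, 4.95, 4.58 and 4.05, against 5.0, 3.82, 3.45 and 2.93 with all 3 arrays. Of the probes called in DRG, 66.6 to 72.8% lacked, like Il6, a signal well above background on all 3 arrays of one of the groups compared.

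Consecutive days of a tissue after resection shared no slide, so a change between them cannot be told apart from a difference between slides or scans. Between consecutive days Il6 was the only member whose representative probe was called with all arrays in the fit. In SN it fell by 1.15 from 1 to 4 d (adjusted p = 0.00569), changed by -0.19 from 4 to 7 d (adjusted p = 0.645) and fell by 1.25 from 7 to 14 d (adjusted p = 0.0128). These were 1 of 9 members at 4 d against 1 d beside 8.53% of all probes, 0 at 7 d against 4 d beside 2.6% and 1 at 14 d against 7 d beside 1.65%. From 4 to 7 d in SN, 3 of the 9 passed the limma adjusted p below 0.05 but not 2-fold. These were Clcf1, Il6st and Il6ra (adjusted p = 0.000834, 0.00895 and 0.00372). Without the 2-fold limit, 5 of the 9 had an adjusted p below 0.05 from 1 to 4 d and 3 from 7 to 14 d. In DRG Il6 fell by 1.17 from 1 to 4 d (adjusted p = 0.0419), which was 1 of 8 members beside 4.27% of all probes. No member was called in DRG at 7 d against 4 d or at 14 d against 7 d, beside 0.177 and 0.0972% of all probes, where the changes of Il6 were -0.37 and -0.52 (adjusted p = 0.594 and 0.517). At an unadjusted limma p below 0.05, 1 of the 8 members passed in the first of these intervals (Cntf) and 2 in the second (Lif and Lifr), and by the methods' t-test with 2-fold none did. The call in DRG was lost when any 1 of the 6 arrays was left out (adjusted p from 0.0519 to 0.118), and the call in SN from 7 to 14 d was lost without SN 7 d replicate 2, without SN 7 d replicate 3 or without SN 14 d replicate 2, where the change was -1.05, -1.16 and -0.98. That SN call was also lost with the slide as a random block (-1.22, adjusted p = 0.0944), with only the arrays compared (adjusted p = 0.083), by the methods' t-test after adjustment and for size with normexp background correction (-0.60).

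Clcf1, a ligand of the gp130 and Lifr pair with Cntfr, was measured by 2 probes (rn4 chr1:206806002-206806061 and chr1:206804976-206805035, plus strand). The brighter probe read -0.93, -0.86 and -0.97 in SN at 0 d and 2.43, 2.44 and 2.54 at 1 d. Its later SN values were 1.73, 1.69 and 1.68 at 4 d, 1.14, 0.94 and 1.02 on day 7, and 0.20, 0.55 and 0.31 at 14 d. The 5 SN groups did not overlap, with a high point at 1 d followed by a stepwise decline that stayed above 0 d. Clcf1 rose by 3.39 ± 0.0902 (SE) on the log2 scale at 1 d, and 6.14-fold at 4 d, 3.86-fold on day 7 and 2.41-fold at 14 d in SN (adjusted p = 6.36e-10, 2.37e-09, 2.16e-08 and 5.64e-07). The second probe gave 3.44, 2.41, 1.98 and 0.88 for the same days, so at 14 d the call held for the brighter probe only. Its steps from 1 to 4 d (-1.03) and from 7 to 14 d (-1.1) passed 2-fold, where those of the brighter probe, -0.77 and -0.68, did not. In DRG the brighter probe read -1.83, -2.32 and -1.32 at 0 d and -1.67, -1.72 and -1.72 at 1 d, with overlap of the groups. Its DRG values from 4 d on lay between -1.27 and -0.69, above all 0 d arrays, with changes of 0.67, 0.59 and 0.86 at 4, 7 and 14 d that stayed under 2-fold (adjusted p = 0.0241, 0.0481 and 0.00522). Without DRG 0 d replicate 3 the 14 d change was 1.11 (adjusted p = 0.000603), over 2-fold.

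Cntf, the neurocytokine of myelinating Schwann cells, was the ligand that fell. Its probe (rn4 chr1:215842670-215842729, minus strand, 10 spots per array) read 5.76, 5.87 and 6.32 in SN at 0 d and 5.37, 5.53 and 5.22 at 1 d. It read 4.86, 4.64 and 4.64 at 4 d, 4.63, 4.35 and 4.35 on day 7, and 3.81, 4.27 and 4.13 at 14 d. Each SN group lay below the group of the day before, with no overlap. The change was -0.61 at 1 d (adjusted p = 0.00546), under 2-fold, and Cntf then fell 2.42-fold at 4 d, 2.90-fold on day 7 and 3.76-fold at 14 d (adjusted p = 2.63e-05, 5.98e-06 and 1.81e-06). In DRG it read 4.16, 3.65 and 3.85 at 0 d, and all later DRG arrays lay between 3.60 and 4.44. The DRG groups overlapped 0 d at each day, and the changes were 0.00, 0.22, -0.21 and -0.03, with 95% confidence intervals from -0.35 to 0.35, -0.13 to 0.57, -0.56 to 0.14 and -0.38 to 0.32. The mean signal of 9 Schwann cell markers ran down over the same days in SN, from 4.55 to 4.79 at 0 d to 3.54 to 3.74 at 7 d and 3.78 to 4.07 at 14 d. Of the 9, 4 were called downwards at 4, 7 and 14 d, beside 22.7, 24.9 and 19.8% of all probes called in either direction. The part of the Schwann cells in the fall of Cntf was not tested.

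Lif, a ligand of the gp130 and Lifr pair, had a probe at rn4 chr14:84890560-84890619 (plus strand). In SN it read -4.86, -3.14 and -3.25 at 0 d, and the 12 later arrays lay between -3.10 and -2.42. Every later array was thus above the 0 d arrays, of which replicate 1 stood far below the other two. Lif was called in SN at 7 d (1.1 ± 0.347 SE, 2.14-fold, adjusted p = 0.0155), and its changes at 1, 4 and 14 d were 0.77, 0.81 and 0.94 (adjusted p = 0.0714, 0.0592 and 0.0354). Without SN 0 d replicate 1 the 7 d change was 0.55 (adjusted p = 0.012) and no longer 2-fold, and with quantile normalization it was 0.77 (adjusted p = 0.0512). The call was also lost with the slide as a random block (adjusted p = 0.0835), with only the arrays compared (adjusted p = 0.076) and by the methods' t-test, unadjusted too. Conversely, without SN 0 d replicate 2 the changes at 1, 4 and 14 d were 1.07, 1.12 and 1.25, and without replicate 3 they were 1.02, 1.07 and 1.19, all called (adjusted p from 0.0117 to 0.0338), as was that at 14 d without SN 14 d replicate 1 (1.09, adjusted p = 0.0365). Without SN 0 d replicate 1 those changes were 0.22, 0.26 and 0.39. The same array had the highest mean signal of 7 skeletal muscle markers, 7.47, against -1.33 to 4.83 on the other SN arrays. The part of muscle RNA in the Lif value was not tested. In DRG Lif read -3.77, -3.15 and -3.10 at 0 d and -2.69, -2.69 and -2.42 at 14 d. The 14 d arrays stood above 0 d with a change of 0.74 (adjusted p = 0.00855), under 2-fold, and the changes at 1, 4 and 7 d were 0.15, 0.29 and 0.14. With DRG 0 d from replicate 1 alone the 14 d change was 1.17 (adjusted p = 0.00486), which made 2 members called in DRG at 14 d in place of 1.

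Osm, a cytokine of activated myeloid cells, had a probe at rn4 chr14:84859737-84859796 (plus strand) whose values spread widely in SN. It read -6.42, -5.87 and -5.97 at 0 d and -4.38, -4.52 and -2.37 at 1 d. It read -5.20, -5.26 and -4.79 at 4 d, -2.32, -5.44 and -5.07 on day 7, and -4.53, -5.98 and -5.18 at 14 d. The 1, 4 and 7 d arrays were all above 0 d, but 1 d replicate 3 and 7 d replicate 1 each stood far above the other arrays of their group. Osm was called at 1 d (2.33 ± 0.748 SE, 5.04-fold, adjusted p = 0.0168), and the changes at 4, 7 and 14 d were 1.00, 1.81 and 0.86 (adjusted p = 0.261, 0.0516 and 0.346). Without SN 1 d replicate 3 the 1 d change was 1.64 (adjusted p = 0.0805), and with quantile normalization it was 1.66 (adjusted p = 0.0836). The call was also lost with the slide as a random block (2.33, adjusted p = 0.0942) and by the methods' t-test after adjustment. The 7 d change was 0.83 without SN 7 d replicate 1 and 2.39 and 2.21 (adjusted p = 0.0226 and 0.0414) without replicate 2 or replicate 3 of that group. In DRG Osm read between -7.43 and -6.07 and was well above background on 0 to 2 arrays of a group, so it was not tested there.

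Il6st, the gp130 subunit common to all these cytokines, was called at no day in either tissue, though its SN values shifted upwards. Its probe (rn4 chr2:43833273-43833332, plus strand) read 1.82, 1.42 and 1.51 in SN at 0 d, 2.25, 2.41 and 2.32 on day 1, 1.93, 2.02 and 2.11 at 4 d, 2.58, 2.52 and 2.64 on day 7, and 2.57, 2.57 and 2.21 at 14 d. All 12 later SN arrays were above the 3 arrays of 0 d. The changes were 0.74, 0.43, 0.99 and 0.86 (adjusted p = 0.000209, 0.00754, 1.9e-05 and 7.88e-05), under 2-fold at each day. At 7 d the value was 1.99-fold, and it passed 2-fold with the other normalizations (log2 1.04 to 1.08). In DRG Il6st read 1.61, 0.53 and 1.33 at 0 d and 0.94 to 1.58 on the later arrays. These overlapped, with changes of 0.21, -0.04, 0.06 and -0.09 at 1, 4, 7 and 14 d and 95% confidence intervals of -0.26 to 0.68, -0.51 to 0.44, -0.41 to 0.53 and -0.56 to 0.38.

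Osmr, the chain that pairs with gp130 for Osm, was the receptor that rose. Its probe (rn4 chr2:56081199-56081943, minus strand) read -3.80, -3.70 and -3.56 in SN at 0 d and -1.94, -1.59 and -1.51 at 1 d. It read -2.32, -2.28 and -2.03 at 4 d, -2.24, -2.21 and -2.02 on day 7, and -2.59, -2.86 and -2.35 at 14 d. The 12 later arrays were all above the 3 arrays of 0 d, and the 1 d arrays were above those of every later day. Osmr rose 4.02-fold at 1 d (2.01 ± 0.147 SE), 2.78-fold at 4 d, 2.88-fold on day 7 and 2.12-fold at 14 d in SN (adjusted p = 7.5e-07, 4.08e-06, 3.19e-06 and 6.65e-05). The 14 d value lay near the 2-fold limit: it was 0.96 without SN 14 d replicate 3 and 0.79 with quantile normalization. With normexp background correction the changes at 4, 7 and 14 d were 0.91, 0.88 and 0.53, under 2-fold. In DRG Osmr read -3.99, -3.70 and -3.75 at 0 d, -3.61, -3.20 and -3.38 on day 1 and -4.01, -4.50 and -4.48 at 4 d. The 1 d arrays were above and the 4 d arrays below 0 d, with changes of 0.42 (adjusted p = 0.132) and -0.52 (adjusted p = 0.047), and the step from 1 to 4 d was -0.94 (adjusted p = 0.00543), all under 2-fold. Without DRG 1 d replicate 1 or DRG 4 d replicate 1 that step was -1.04 and -1.1 (adjusted p = 0.0105 and 0.00197) and was called.

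Lifr, the chain shared by Lif, Cntf, Clcf1 and Osm, moved in opposite directions in the 2 tissues. Its probe (rn4 chr2:56477054-56477113, plus strand) read -1.89, -1.66 and -1.68 in SN at 0 d and -2.31, -2.34 and -2.39 at 1 d. It read -2.66, -2.77 and -2.83 at 4 d, -2.90, -3.10 and -2.88 on day 7, and -2.44, -2.37 and -2.70 at 14 d. All later SN arrays were below 0 d, with the low point at 7 d. Lifr fell 2.02-fold by 4 d and 2.33-fold on day 7 (adjusted p = 4.29e-06 and 1.02e-06), and the changes of -0.61 at 1 d and -0.77 at 14 d (adjusted p = 0.000265 and 5.53e-05) stayed under 2-fold. The 4 d call rested on values near the limit, -0.97 to -0.98 without SN 0 d replicate 2, without SN 0 d replicate 3 or without SN 4 d replicate 3, and with normexp background correction both changes, -0.84 and -0.94, were under 2-fold. In DRG Lifr read -1.37, -1.57 and -1.63 at 0 d, -1.21, -1.13 and -1.09 on day 4 and -0.86, -1.02 and -1.02 at 7 d. The 4, 7 and 14 d arrays were above 0 d, with changes of 0.38, 0.55 and 0.30 (adjusted p = 0.00601, 0.000663 and 0.0139), all under 2-fold.

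Il6ra, the specific chain for Il6, was called at no day in either tissue. Its probe (rn4 chr2:182078323-182078382, minus strand) read 0.56, 0.63 and -0.05 in SN at 0 d, 0.78, 0.52 and 0.69 on day 1, 0.99, 0.99 and 0.89 at 4 d, 0.18, 0.11 and 0.10 on day 7, and 0.10, -0.07 and 0.10 at 14 d. The 4 d arrays were above all others of SN, with a change of 0.57 from 0 d (adjusted p = 0.00509) and a step of -0.82 from 4 to 7 d (adjusted p = 0.00372), both under 2-fold. In DRG it read -1.46, -1.66 and -2.23 at 0 d, and the 4, 7 and 14 d arrays lay between -1.46 and -0.93. The changes there were 0.57, 0.43 and 0.65 (adjusted p = 0.0503, 0.145 and 0.0231).

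**Figure D2:**
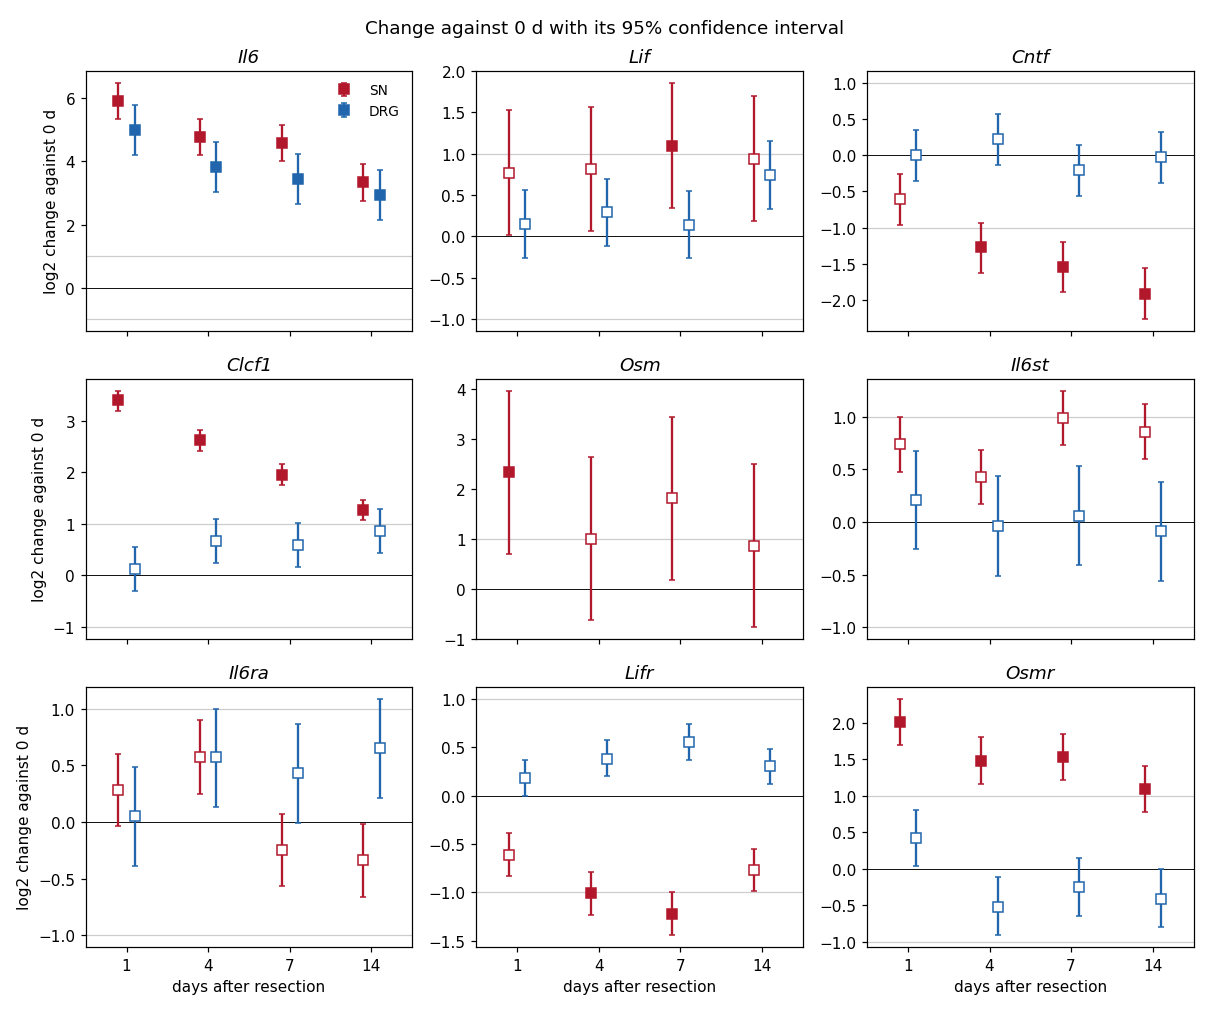
Change from 0 d (log2) of the representative probe of each gene at 1, 4, 7 and 14 d in SN and DRG, with 95% confidence intervals from limma, filled points for changes called, and grey lines at 2-fold. Il6 was called at each day in both tissues, Clcf1 and Osmr at each day in SN, and Cntf at 4, 7 and 14 d in SN with a change of -1.91 at 14 d. Il6 at 0 d lay below background, so its plotted changes are fitted values and not bounds.

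Before resection the tissues differed in 2 of the 9 members by more than 2-fold, beside 36.2% of all probes. Cntf was 4.27-fold higher in SN than in DRG at 0 d (2.09, adjusted p = 8.21e-11) and Il6ra 4.48-fold higher (2.16, adjusted p = 2.88e-10), and for both the groups did not overlap. With the slide as a fixed block, which compares tissues on arrays of 1 slide, these differences were 1.82 and 1.84. At 0 d this sets the SN arrays against DRG replicate 1 alone, since DRG replicates 2 and 3 lay on a slide of their own. Clcf1 was higher in SN by 0.91 (adjusted p = 2.02e-05), under 2-fold. Over the 10 groups, Cntf was highest in SN at 0 d, then at 1 d and 4 d with no overlap between neighbours, and from SN 7 d down to DRG 14 d each group overlapped the next. Clcf1 and Osmr were highest in SN at 1 d and lowest in DRG, at 0 d and 4 d respectively, and their 4 SN groups after resection stood above every DRG group. Il6 was highest in SN at 1 d, above DRG at 1 d without overlap (-2.70 to -2.36 against -3.06 to -2.98). Lifr held the reverse order, with all 5 DRG groups above all 5 SN groups. Neighbours of Lif overlapped all the way down the order, and those of Osm all but at 1 step, DRG 14 d above DRG 7 d.

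Whether a change differed between the tissues was tested as an interaction, the change in SN minus the change in DRG, called at adjusted p below 0.05 alone. With the slide as a fixed block (within slides), the DRG 0 d level is that of replicate 1, the only DRG array on the slide of SN 0 d. That fit and the one with DRG 0 d from replicate 1 alone thus share 1 baseline array. It was called for 5 of 9 members at 1 d, 4 on day 4, 6 on day 7 and 5 at 14 d, beside 34.5, 44, 36.9 and 31.1% of all probes. Osm, among those at 1 d, entered this fit through its SN groups, since no DRG group had it well above background on all 3 arrays. The change of Osmr was higher in SN by 1.59, 1.99, 1.78 and 1.49 at 1, 4, 7 and 14 d (adjusted p = 2.81e-05, 7.62e-07, 3.65e-06 and 4.43e-05), and by 1.63, 2.0, 1.59 and 1.56 with the slide as a fixed block. For Lifr the difference was -0.79, -1.39, -1.77 and -1.07 (adjusted p = 6.2e-05, 1.66e-08, 4.64e-10 and 1.08e-06) and -0.70, -1.32, -1.73 and -1.11 within slides. Osmr and Lifr thus differed between the tissues at every day, in opposite directions. Clcf1 differed by 3.27, 1.95 and 1.36 at 1, 4 and 7 d (adjusted p = 5.84e-10, 4.03e-07 and 4.53e-05), and at 14 d by 0.41 (interval -0.05 to 0.87, adjusted p = 0.175), or 0.66 without DRG 0 d replicate 2 (adjusted p = 0.00822). Cntf differed by -1.49, -1.33 and -1.88 at 4, 7 and 14 d (adjusted p = 2.08e-05, 9.31e-05 and 1.67e-06). Its difference at 1 d, -0.61 (adjusted p = 0.045), was -0.26 within slides (adjusted p = 0.66) and -0.33 (adjusted p = 0.431) with DRG 0 d from replicate 1 alone. Il6st differed by 0.93 and 0.96 at 7 and 14 d (adjusted p = 0.00605 and 0.00595), and both calls were lost with only the arrays compared (adjusted p = 0.0527 and 0.0744). Within slides the Il6st differences were 0.96, 1.01, 1.56 and 1.17 at 1, 4, 7 and 14 d. There the DRG 0 d level was that of replicate 1, the highest DRG array of that day for Il6st (1.61, against 0.53 and 1.33). Il6ra differed by -0.68 and -0.99 at 7 and 14 d (adjusted p = 0.0423 and 0.00498), which were -0.26 and -0.62 within slides (adjusted p = 0.64 and 0.235), and -0.36 and -0.67 (adjusted p = 0.382 and 0.0916) with DRG 0 d from replicate 1 alone. The Osm difference at 1 d, 2.12 (adjusted p = 0.0443) with DRG 0 d under background, was 1.90 within slides (adjusted p = 0.348) and 1.42 without SN 1 d replicate 3 (adjusted p = 0.156). For Il6 the fitted difference was 0.93, 0.95, 1.14 and 0.41 (adjusted p = 0.134, 0.106, 0.063 and 0.555), with 0 d below background in both tissues, and within slides it was -0.20, -0.21, -0.03 and -0.34. Without DRG 0 d replicate 1, the Il6 differences were 1.49, 1.52, 1.70 and 0.97 and all were called (adjusted p from 0.000688 to 0.0414), and without SN 7 d replicate 1 the 7 d difference was 1.43 (adjusted p = 0.0236). The plot of the tissue differences sets both sets of values side by side.

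**Figure D3:**
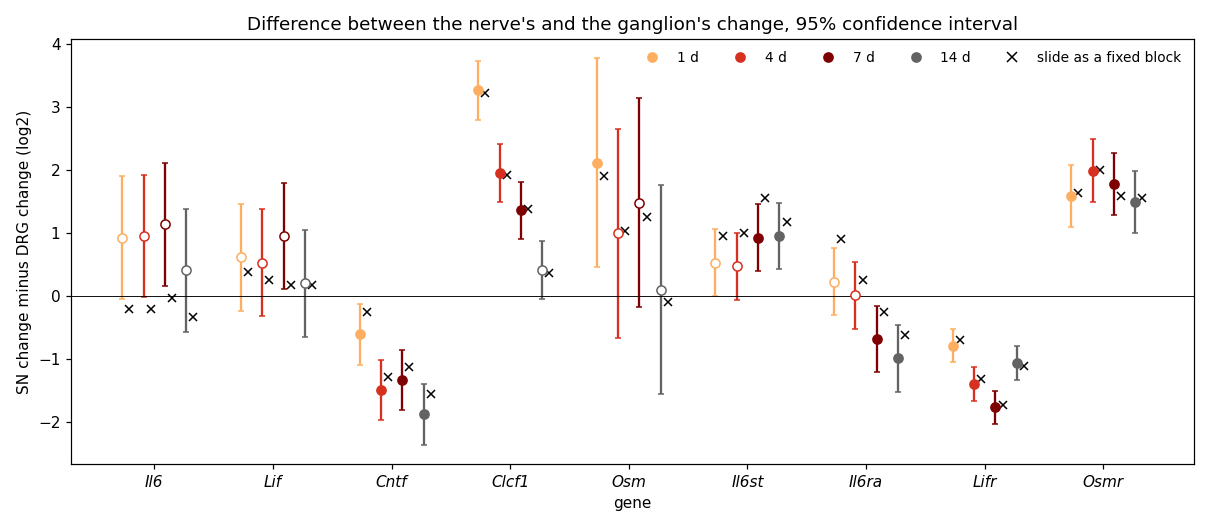
Change in SN minus change in DRG (log2) of each gene at 1, 4, 7 and 14 d, with 95% confidence intervals, filled points for adjusted p below 0.05, and crosses for the value with the slide as a fixed block, where the DRG 0 d level is that of replicate 1. Osmr stood above 0 and Lifr below 0 at each day under both fits, and the Clcf1 difference ran from 3.27 at 1 d to 0.41 at 14 d.

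Markers of other cells moved in SN over the same days. Beside the counts below, 22.1, 22.7, 24.9 and 19.8% of all probes were called in SN at 1, 4, 7 and 14 d. In DRG the shares were 7.6, 6.55, 6.91 and 13.5%. The mean signal of 8 neutrophil markers lay between -5.81 and -5.35 at 0 d, between -2.88 and -2.34 at 1 d and between -4.75 and -4.25 from 4 to 14 d, and 6 of the 7 tested were called upwards at 1 d. That of 10 macrophage markers lay between 0.80 and 0.97 at 0 d, 2.16 and 2.53 on day 1 and 2.70 and 3.0 at 4 d, with 8, 10, 8 and 7 of 10 called upwards at 1, 4, 7 and 14 d. T cell markers rose from between -4.57 and -4.31 to between -0.85 and -0.64 at 7 d and between -1.43 and -0.75 at 14 d. All 7 were called at both days. In DRG 0, 4, 6 and 5 of the 10 macrophage markers were called upwards (at 1 d, 2 had an unadjusted limma p below 0.05), and their mean lay between -1.09 and -0.39 at 0 d and between 0.24 and 0.34 at 7 d. Skeletal muscle markers were variable in SN and 7 of 7 were called downwards at 4 and 7 d, of which the methods' t-test with 2-fold passed 6 and 0. Sensory neuron markers in DRG ran from between 5.89 and 5.95 at 0 d to between 5.46 and 5.55 at 14 d, where 8 of 11 had an adjusted p below 0.05 and none passed 2-fold. In SN, where their signal was low, 4 of the 11 were called upwards and 6 downwards at 14 d. The part of these cells in the changes of Il6, Clcf1, Osm and Osmr was not tested.

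**Figure D4:**
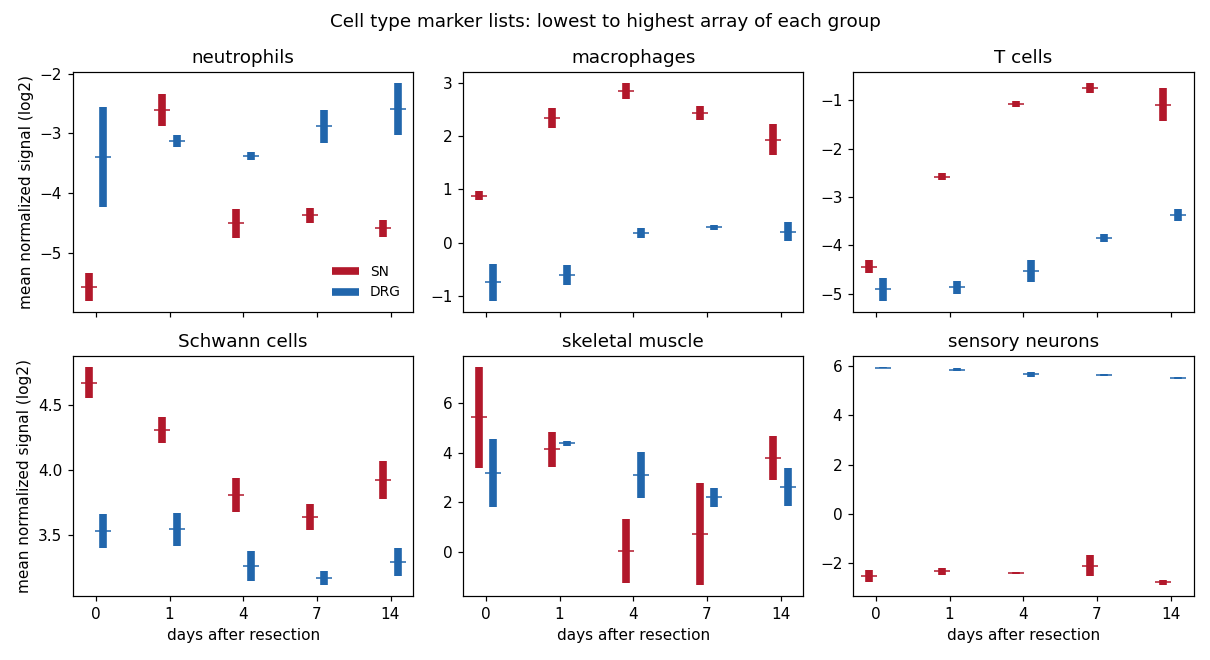
Range from the lowest to the highest array of the mean normalized signal (log2) of 6 marker lists by day in SN and DRG. Neutrophil markers peaked in SN at 1 d and macrophage markers at 4 d, and the SN ranges of T cell markers at 7 and 14 d overlapped. Schwann cell markers were lowest in SN at 7 d, and sensory neuron markers went from 5.89 to 5.95 in DRG at 0 d to 5.46 to 5.55 at 14 d.

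Of 60 further genes of the pathway in 5 lists, 57 were on the array and 55 were tested in SN. In SN 27 were called upwards and 2 downwards at 1 d, 20 and 4 on day 4, 23 and 5 on day 7, and 14 and 4 at 14 d, beside 22.1, 22.7, 24.9 and 19.8% of all probes called in either direction, with medians of 0.96, 0.71, 0.85 and 0.45 against 0.11 to 0.16 over all probes. In DRG 12, 11, 10 and 13 were called, beside 7.6, 6.55, 6.91 and 13.5% of all probes, with medians of 0.39, 0.53, 0.46 and 0.48 against 0.08 to 0.14. All were upwards, as were 92.3 to 97.8% of the DRG calls over all probes. Among the other ligands and receptors, 5 of 7 tested rose in SN at 1 d, and 2 at each of 4, 7 and 14 d. Of the 7, 1 fell in SN at 4 d and 1 at 7 d. In DRG 1, 0, 0 and 2 of the 7 rose at 1, 4, 7 and 14 d. Ebi3, a subunit of the gp130 cytokine Il27, rose by 1.01, 2.19, 1.29 and 1.06 (log2) in SN at 1, 4, 7 and 14 d. Il11, another gp130 ligand, was well above background in SN at 1 d alone, on all 3 arrays, where it rose at least 1.46-fold. Il31ra, which pairs with Osmr to bind Il31, rose by 2.36 in SN at 1 d, and by 1.27 in DRG at 14 d, where 1 of the 3 arrays of 0 d was well above background.

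In the Jak and Stat list, 1 of 10 was called upwards in SN at 1, 4 and 7 d, 1 downwards at 4, 7 and 14 d, and none in DRG. Of all probes, 22.1, 22.7, 24.9 and 19.8% were called in either direction in SN at 1, 4, 7 and 14 d. In DRG the shares were 7.6, 6.55, 6.91 and 13.5%. With 10 genes, the counts of this list are not read as a difference from all probes. Without the 2-fold limit, 8, 8, 7 and 8 of the 10 had an unadjusted limma p below 0.05 in SN at 1, 4, 7 and 14 d, and 2, 6, 5 and 4 in DRG. The share of all probes at that threshold is not given, so these counts are no result about the list. The gene called upwards was Stat3, the main transcription factor of the pathway, with levels of 1.63 to 1.75 at 0 d, 3.02 to 3.17 at 1 d, 2.83 to 2.89 at 4 d, 2.68 to 2.89 at 7 d and 2.56 to 2.83 at 14 d in SN. Stat3 rose by 1.42, 1.18 and 1.11 at 1, 4 and 7 d, with 0.98 at 14 d just under 2-fold, and in DRG the changes were 0.69, 0.36, 0.18 and 0.22. Mapk3, an Erk kinase, fell by 1.03 and 1.31 in SN at 7 and 14 d, and Ptpn11, which encodes Shp2, fell by 1.09 at 4 d alone. Of the 10 feedback inhibitors, 4, 4, 6 and 3 rose in SN and 2, 1, 1 and 1 in DRG, beside the same shares of all probes. Socs3, the inhibitor that binds gp130 and is induced by Stat3, read -4.45 to -4.32 in SN at 0 d, -1.56 to -1.38 at 1 d, -2.24 to -1.93 at 4 d, -2.32 to -2.24 at 7 d and -2.43 to -2.30 at 14 d. The Socs3 groups after resection all stood well above 0 d, with rises of 2.92, 2.25, 2.09 and 2.0 (adjusted p = 1.16e-09, 5.08e-09, 1.53e-08 and 2.83e-08). In DRG Socs3 rose by 1.67 at 1 d (adjusted p = 0.00373), and its changes at 4, 7 and 14 d were 0.81, 0.66 and 0.65, under 2-fold. The Socs3 change in SN exceeded that in DRG by 1.25, 1.44, 1.43 and 1.35 (all with adjusted p below 0.05), as did that of Stat3, by 0.73, 0.82, 0.93 and 0.76. Socs1 rose by 1.04, 1.39, 1.63 and 1.2 in SN, Ptpn6 by 1.09, 1.65, 1.41 and 1.08, and Ptpn2 by 1.35, 1.18 and 1.03 at 1, 4 and 7 d.

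Known targets of gp130 and Stat3 held the largest changes of the named pathway genes, and these were in DRG, where no member but Il6 was called. Of 24 targets on the array, 13, 10, 10 and 6 rose and 2, 2, 3 and 3 fell in SN at 1, 4, 7 and 14 d, beside 22.1, 22.7, 24.9 and 19.8% of all probes called in either direction. In DRG 8, 7, 6 and 6 rose, beside 7.6, 6.55, 6.91 and 13.5% of all probes. Vip, a neuropeptide, read -4.05 to -2.97 in DRG at 0 d, 0.89 to 1.28 at 1 d and 4.29 to 5.08 from 4 to 14 d. It rose by 4.45, 8.03, 8.13 and 8.18 in DRG while it fell by 1.90, 1.98, 2.20 and 1.84 in SN. Gal, the neuropeptide galanin, rose by 1.27, 4.18, 4.32 and 4.14 in DRG and fell by 1.68, 1.22 and 1.67 in SN at 1, 7 and 14 d. Atf3, a transcription factor of injured neurons, rose by 4.53, 4.36, 4.13 and 4.23 in DRG, where its level was 1.40 to 1.67 at 0 d and 5.61 to 6.2 afterwards. Its changes in SN lay between -0.33 and 0.36. Reg3b, a secreted lectin induced by Il6-type cytokines, rose by 3.83, 4.93, 4.73 and 4.33 in DRG, and in SN, where 0 d lay under background, by at least 1.05-, 1.57-, 1.72- and 2.0-fold. Among 5 wound cytokines beside the family, Il1rn, the antagonist of the interleukin 1 receptor, rose by 4.33, 3.49, 3.26 and 2.86 in SN, and by 1.22, 1.53 and 1.84 in DRG from 4 d on. Il1b rose in SN by 2.52, 1.48, 1.90 and 1.61 and in DRG by 1.18, 2.11 and 1.5 from 4 d on, and Tnf, under background in SN at 0 d, rose at least 1.77-fold at 1 d and 1.62-fold at 7 d. Il10 was called upwards at each day in both tissues, in DRG from under background by at least 1.01- to 1.81-fold.

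**Figure D5:**
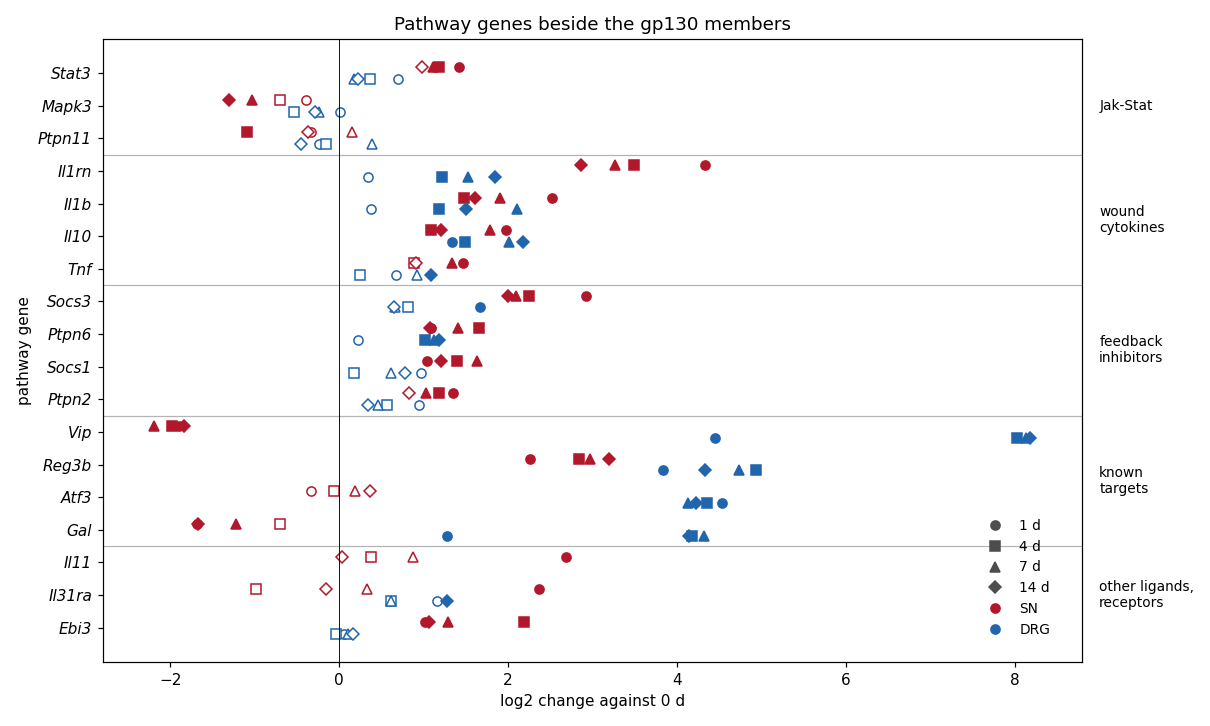
Change from 0 d (log2) of 18 pathway genes, with SN in red, DRG in blue, a marker shape per day and filled points for changes called. The Vip, Gal, Atf3 and Reg3b changes in DRG reached 8.18, 4.32, 4.53 and 4.93, while those of Socs3 and Stat3 were larger in SN. Il11 in DRG was under background and is not drawn, and Il11, Tnf and Reg3b in SN and Tnf and Il10 in DRG lay under background at 0 d, so that their points are fitted values and not bounds.

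Across the 15 SN arrays, which share the 5 groups and their slides, the normalized signals of Il6 and Osmr had a Pearson r of 0.98, those of Il6 and Clcf1 0.947 and those of Clcf1 and Osmr 0.931. Those of Cntf and Lifr had an r of 0.789, while Il6 and Lifr had -0.728 and Cntf and Il6st -0.743. Il6ra followed neither, with an r of 0.237 with Osmr, 0.252 with Cntf and -0.01 with Lifr, and Clcf1 and Cntf had -0.235. In DRG Cntf and Lifr had an r of -0.0226. Over all 30 arrays and 14120 candidate genes, the genes whose signal ran most like Clcf1 were Adam8 (r = 0.985), Ddx39a (0.97) and Msr1 (0.969). Most like Cntf were Apoc3 (0.974), Calm3 (0.971) and Mia (0.968), and most like Osmr were Dis3 (0.968), Mtap (0.962) and Heatr1 (0.96). For Lifr these were Clasp2 (0.975), Rabac1 (0.973) and Cacnb4 (0.97), and for Il6ra Gng12 (0.972), Ssr4 (0.968) and Naca (0.967). Among the genes most like Il6 were Lrp8 (0.934) and Krtap14l (0.933), and Il6st most like Scara3 (0.933), Sf1 (0.931) and Kif15 (0.923). The closest genes were looser for Osm, with Ints2 (0.858), Ddx39a (0.857) and Calr (0.856), and for Lif, with Vwce (0.771), Pgc (0.762) and Lcn5 (0.756). These values describe likeness over arrays of 10 groups and carry no test.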

How the data were processed

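Each of the 30 samples was hybridised to 1 Agilent 1-colour array, and its deposited scanner file (Agilent Feature Extraction 10.5.1.1) holds linear signal intensity per spot, processed by the authors' scanner software (background subtraction), with flags per spot. The series matrix holds the authors' log2 values, which have the same distribution on every array (quantile normalization) and served as an alternative.

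Here, spots flagged as outliers were left out, spots of a probe were averaged, and log2 processed signal minus the array's 75th percentile over 41012 non-control probes was tested with limma 3.58.1 (R 4.3.3) on group means, per tissue (15 arrays) and over all 30 arrays for tissue comparisons. A probe was tested where a group had it well above background on its 3 arrays, with Benjamini-Hochberg adjustment over all of them. Where no array of a group read a probe well above background, the fold is a lower bound under this scaling, set against the lowest signal well above background on those arrays. Precision is limited by the number of arrays. No deposited value column lacked a sample (0 columns). The steps were tested on simulated data.

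Of 8 slides, 7 held 4 arrays and 1 held 2 of the 3 DRG arrays of 0 d alone, with 1 scan each. Comparisons between tissues were also fitted with the slide as a fixed block, where the DRG 0 d level is that of replicate 1. All comparisons were also fitted with the slide as a random block. Other alternatives were normexp (offset 50) with quantile normalization, other scalings, filters and sample sets, the methods' t-test, a replicate block, and leaving out each array.

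Members, gene lists and tests were chosen with earlier results of these data known. Pathway genes named are Stat3, Socs3 and the 4 genes of a list with the largest change among those called, or all if fewer, and the 3 genes most like a member. Of the genes this rule names, 2 are not reported here. The representative probe of a gene has the highest mean signal. The methods in the labels and in the study differ on the RNA kit and the number of rat groups. Probe positions are those of the scanner files (rn4), and promoters come from RefSeq (GRCr8).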

Additional observations from a re-analysis of the deposited data

Results flagged for a closer look

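The change from 0 d differed between SN and DRG, by the limma interaction test, in 20 comparisons of 7 members, each given as the log2 change in SN minus that in DRG. Cntf differed by -0.61, -1.49, -1.33 and -1.88 at 1, 4, 7 and 14 d, Lifr by -0.79, -1.39, -1.77 and -1.07, and Osmr by 1.59, 1.99, 1.78 and 1.49. Clcf1 differed by 3.27, 1.95 and 1.36 at 1, 4 and 7 d. Il6st differed by 0.93 and 0.96 and Il6ra by -0.68 and -0.99 at 7 and 14 d. With only the arrays compared, both Il6st calls were lost (adjusted p = 0.0527 and 0.0744). So were those of Il6ra at 7 d (0.104) and Cntf at 1 d (0.0974), while Osm at 4 d gained a call (1.00, 0.0287). Osm differed by 2.12 at 1 d, but it was well above background on only 0 to 2 arrays of a DRG group. Its DRG change is thus one of signals near background. With the slide as a fixed block, the calls of Il6ra (-0.26 and -0.62, adjusted p = 0.64 and 0.235), of Osm (1.90, 0.348) and of Cntf at 1 d (-0.26, 0.66) were lost.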

How the results depend on the processing

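No called result of a member reversed under any alternative run. Differences of Il6 between tissues, not called, changed sign with the slide as a fixed block, from 0.93, 0.95, 1.14 and 0.41 to -0.20, -0.21, -0.03 and -0.34 at 1, 4, 7 and 14 d and from -0.48 to 0.65 at 0 d. In that fit the DRG 0 d level was that of replicate 1. With normexp background correction and quantile normalization, members called were 3 in place of 5 in SN at 4 d, 2 in place of 4 in SN at 14 d, and 0 in place of 1 in DRG at 7 and 14 d. Pathway genes called in DRG were then 7, 5 and 8 in place of 12, 11 and 13 at 1, 4 and 14 d, members with a tissue difference at 1 d 3 in place of 5, and calls between consecutive days 0 in place of 3. Calls over all probes were then 2229 to 3182 per day in SN and 399 to 673 in DRG, in place of 6945 to 8760 and 2290 to 4714. The median change of all probes was 0.11 to 0.16 in SN and 0.08 to 0.14 in DRG, and -0.08 to 0.03 and -0.04 to 0 with quantile normalization. Where a probe had to be well above background in both groups, Il6 could not be tested and the members called in DRG were 0 in place of 1 at each day. With adjusted p-values of the methods' t-test, the members called in DRG at 4 d were 0, the pathway genes called in DRG at 1 and 4 d were 6 and 6, and the calls between consecutive days were 1. With DRG 0 d from replicate 1 alone, chosen after seeing the data, 2 members were called in DRG at 14 d. The members with a tissue difference at 1 d were 3 with no filter on dim probes, under a random block for the slide and under the replicate block. Leaving out 1 array, that count ran from 3 to 6, and the members called in DRG at 14 d from 1 to 2.

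The replicate numbers did not pair the arrays. Deviations from the group means had a mean r of -0.02 over 135 pairs of arrays with the same number in different groups, and 6 of 30 arrays ran best with their own number. Under the replicate block, 161 of 164 member results kept their side of the threshold, and the tissue differences of Cntf at 1 d (-0.61, adjusted p = 0.0583), Osm at 1 d (2.12, 0.0526) and Il6ra at 7 d (-0.68, 0.0553) did not. Over 1200 results with 1 array left out, 39 lost and 29 gained a call.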

Other observations

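Beside the counts below, 22.1, 22.7, 24.9 and 19.8% of all probes were called in SN at 1, 4, 7 and 14 d. In DRG the shares were 7.6, 6.55, 6.91 and 13.5%. Fibroblast markers in SN moved by less than 2-fold. None of 6 was called at any day after resection in either tissue, with a median change in SN of -0.73, -0.66, -0.53 and -0.52 at 1, 4, 7 and 14 d, although 6, 5, 4 and 6 of them had an unadjusted limma p below 0.05 in SN, and 1, 3, 3 and 3 in DRG. By the methods' t-test with 2-fold, 0 passed in either tissue. Of 5 endothelial markers, 1 fell in SN at 1 d and none was called later or in DRG, where at most 1 at a day had an unadjusted limma p below 0.05 (1, 4 and 1 in SN at 4, 7 and 14 d). Of 5 satellite glia markers, none was called in DRG (2, 1, 2 and 1 at an unadjusted limma p below 0.05), and in SN 1 rose and 1 fell at 1 d and at 4 d, 2 rose at 7 d and 1 rose at 14 d. Of 4 adipocyte markers tested, 3, 2 and 3 fell in SN at 4, 7 and 14 d, and 1 rose in DRG at each of these days. By the methods' t-test with 2-fold, 1, 0 and 0 passed in SN and 1 at each day in DRG.

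The Il6 and Cntf probes were each printed as 10 spots per array. The SD of log2 signal over these spots lay between 0.034 and 0.4 for Il6 and between 0.0347 and 0.185 for Cntf over the 30 arrays.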
